A study of Tachysurus vachellii with 6 samples.

Results

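Genes of the superoxide dismutases, catalase and peroxiredoxins, enzymes that remove superoxide and hydrogen peroxide, were followed in the gill of hybrid yellow catfish held at low or ordinary oxygen. The set was defined by name: the superoxide dismutase symbols sod1, sod2 and sod3, the catalase symbol cat and the peroxiredoxin symbols prdx1 to prdx6, together with unnamed genes whose description starts with superoxide dismutase or peroxiredoxin. It held 10 of the 28288 genes in the deposited table, 7 found by symbol and 3 by description, with 2 superoxide dismutases, 1 catalase and 7 peroxiredoxins. All 10 passed the filter on low values, an FPKM (fragments per kilobase of transcript, scaled to library size) of at least 1 in at least 3 libraries, which left 15312 genes to test. The 10 genes lie on 10 different scaffolds.

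The fish were a hybrid with Tachysurus fulvidraco as the female and Pseudobagrus vachellii as the male parent, and were fasted before the trial. For 96 h, dissolved oxygen was held at 1.5 mg/L in the hypoxia group and at 6.5 mg/L in the controls, the normoxia group. RNA of 9 fish per group was mixed in pools of 3 fish, giving 3 libraries per group, so that every spread given here is between pools and not between single fish. The labels state neither the age nor the sex of the fish.

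Superoxide dismutases turn superoxide, a by-product of respiration and of NADPH oxidases, into oxygen and hydrogen peroxide. The product of sod1 is the copper-zinc enzyme of the cytosol and that of sod2 the manganese enzyme of the mitochondrial matrix. Catalase, mostly in peroxisomes, splits hydrogen peroxide without a reductant, while peroxiredoxins reduce it through a reactive cysteine that is then restored, for most members, by thioredoxin and NADPH. The gill is the surface across which these fish take up oxygen, and it is perfused by nucleated red blood cells, which in vertebrates hold large amounts of such enzymes.

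In hypoxia 3 of the 10 genes rose, sod1 by 1.84-fold, prdx3 by 1.74-fold and prdx4 by 1.6-fold, and none fell. The other 7 did not pass the test, among them cat, with a log2 difference of -0.03 and a 95% interval from -0.66 to 0.59. Among all 15312 tested genes 9.54% were called, 5.39% higher and 4.15% lower, by edgeR's quasi-likelihood test with Benjamini-Hochberg adjustment over all genes at 0.05. No member had a negative difference even at an unadjusted p under 0.05, and DESeq2 called 0 members lower. At that unadjusted level lay 4 members, all higher, and 30.3% of all tested genes. Of the 15312 genes DESeq2 called 1792 higher, 3 members among them, and 1540 lower. The median log2 difference was 0.36 over the 10 members and -0.04 over all tested genes. With 1 library left out, all 3 genes kept their call without hypoxia replicate 3 or normoxia replicate 1, and 0 members were called when replicate 1 or 2 of hypoxia, or replicate 2 or 3 of normoxia, was absent.

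Total counts were 44762764 to 55016223 per library. TMM scaling, which sets the libraries on a common centre, gave factors from 0.867 in hypoxia replicate 1 to 1.08 in normoxia replicates 2 and 3. With library totals in its place the median log2 difference of all genes moved from -0.04 to -0.20, and 364 genes were called higher and 812 lower, against 825 and 636. Changes are therefore given relative to the TMM centre, whereas FPKM are given as deposited, without that scaling. In a tissue sample, fewer cells of a type and less RNA per cell cannot be told apart. Of 7 tested epithelial markers, with a median log2 difference of 0.12 and 4 above 0, none passed the edgeR test. At an unadjusted p under 0.05, where 30.3% of all tested genes lay, 1 was higher and 2 lower, and DESeq2 called the same numbers. The 2 with lower values were tp63, a basal cell factor, at mean levels of 81.7 FPKM in normoxia and 37.1 FPKM in hypoxia (edgeR adjusted p = 0.0503), and the cadherin-1-like gene LOC113634238, at 8.12 and 3.69 FPKM (edgeR adjusted p = 0.0564). The higher one was cldn7, at 174 and 222 FPKM, and krt18 stood at 1653 and 1300 FPKM. None of 3 tested ionocyte markers passed the edgeR test, and DESeq2 called 0. At an unadjusted p under 0.05, 0 were higher and 1 lower (slc12a2, 4.86 and 3.19 FPKM). The remaining tested ionocyte markers, atp1b1 and foxi1, leaned upward, by 0.36 ± 0.19 and 0.38 ± 0.29 in log2. Summed over the ionocyte list, FPKM ran from 191 to 282 in normoxia and from 259 to 281 in hypoxia. The ionocyte gene foxi3 was listed at 0 counts in all libraries. Whether these markers have a part in the members' changes was not tested.

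The cytosolic dismutase gene sod1 was at 126, 104 and 113 FPKM in normoxia replicates 1, 2 and 3 and at 162, 208 and 197 FPKM in hypoxia replicates 1, 2 and 3. Every hypoxia library lay above every normoxia library, with hypoxia replicate 1 the nearest to the control range. In FPKM the groups did not overlap for 37.3% of all tested genes, 11.4% with hypoxia above and 25.9% with hypoxia below, and among the members for 3 with hypoxia above and 1 below. The log2 change was 0.88 ± 0.14 (SE, 95% interval 0.54 to 1.22), with an edgeR adjusted p of 0.0234. It ran from 0.80 to 1.00 with 1 library left out, with edgeR adjusted p from 0.0376 to 0.0815. The gene lies on scaffold NW_020848034.1 from 392364 to 396866 on the minus strand, in the coordinates of the deposited table, whose genome build the labels do not name.

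The mitochondrial dismutase gene sod2, on scaffold NW_020847971.1 from 1008547 to 1011333, stood at 30.2, 37.4 and 31.6 FPKM in normoxia and at 38.5, 41.8 and 35.9 FPKM in hypoxia. The groups overlapped through normoxia replicate 2 and hypoxia replicate 3. Its log2 difference was 0.40 ± 0.15, with an interval from 0.05 to 0.75 before adjustment over all genes and an edgeR adjusted p of 0.128. The estimate of sod1 lies outside that interval, but the interval of sod1, from 0.54 to 1.22, overlaps it. The difference between the 2 dismutase genes was not tested in itself.

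Catalase, on scaffold NW_020847956.1 from 374418 to 384354, was among the least abundant members, at 14.8, 14.8 and 12 FPKM in normoxia and 11.9, 15.6 and 8.38 FPKM in hypoxia. Hypoxia replicate 2 was the highest and hypoxia replicate 3 the lowest of the 6 libraries, so the range of the hypoxia group enclosed that of the controls. The difference of -0.03 ± 0.26 in log2 (edgeR adjusted p = 0.944) ran from -0.27 to 0.21 with 1 library left out and was of either sign. The wide interval leaves room for a moderate rise or fall of this transcript.

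**Figure D1:**
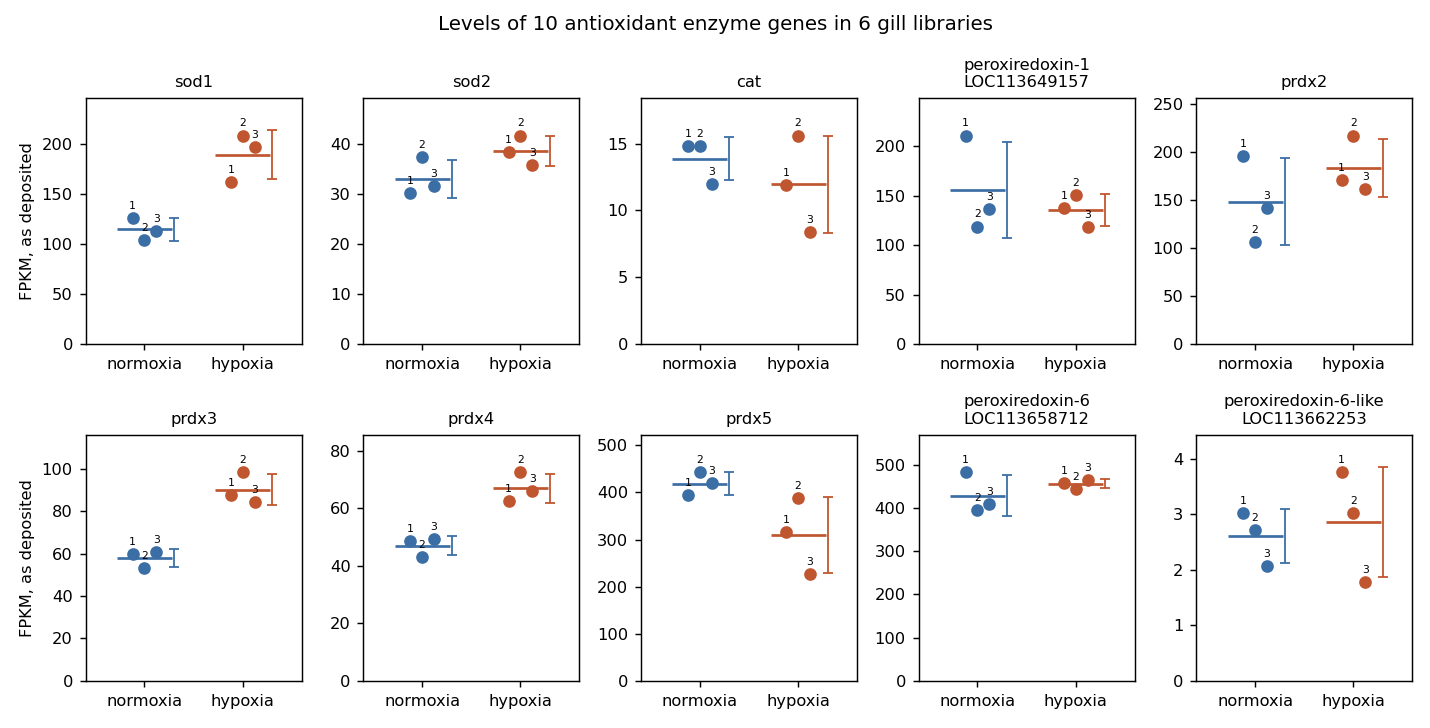
FPKM as deposited (vertical axis, from 0) of the 10 genes in the 3 normoxia (blue) and 3 hypoxia (orange) libraries; digits give the replicate, horizontal lines the group mean and bars the SD. The hypoxia points of sod1, prdx3 and prdx4 all lie above the normoxia points, while those of prdx5 lie below them and those of the other 6 genes overlap.

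Among the peroxiredoxins, prdx3 and prdx4 rose and the other 5 did not pass the test. The product of prdx3 is the peroxiredoxin of the mitochondrial matrix, and that of prdx4 is held in the endoplasmic reticulum or secreted. The transcript prdx3 was at 59.8, 53.3 and 61.0 FPKM in normoxia and 87.6, 98.4 and 84.3 FPKM in hypoxia. The lowest hypoxia library was well above the highest control, and the spread within a group was small. Its log2 change was 0.80 ± 0.14 (interval 0.46 to 1.14, edgeR adjusted p = 0.0279), and 0.73 to 0.90 with 1 library left out, with edgeR adjusted p from 0.0384 to 0.0935.

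The transcript prdx4 was at 48.5, 43.1 and 49.3 FPKM in normoxia and 62.6, 72.5 and 65.9 FPKM in hypoxia, again with no overlap. Its log2 change was 0.67 ± 0.13 (interval 0.36 to 0.98, edgeR adjusted p = 0.0324), and 0.61 to 0.75 with 1 library left out, with edgeR adjusted p from 0.0472 to 0.106. It was the member closest to the threshold: with library totals in place of TMM its log2 change was 0.50 and its edgeR adjusted p 0.0566. The genes lie on scaffolds NW_020848052.1 from 2162383 to 2166010 (prdx3) and NW_020848123.1 from 153741 to 157005 (prdx4), both on the plus strand.

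The remaining mitochondrial member, prdx5, whose product is also found in the cytosol and peroxisomes, was at 394, 443 and 420 FPKM in normoxia and 316, 388 and 227 FPKM in hypoxia. On this scale every hypoxia library lay below every control. After TMM scaling, in CPM (counts scaled to a common library size), it was at 374, 403 and 381 in normoxia and 353, 404 and 213 in hypoxia, and the groups overlapped. On that scale 37.2% of all tested genes did not overlap, 18.7% with hypoxia above and 18.5% with hypoxia below, and of the members only sod1, prdx3 and prdx4 did not. The log2 difference was -0.26 ± 0.24 (interval -0.82 to 0.31, edgeR adjusted p = 0.512) and -0.03 without hypoxia replicate 3, the library that lay lowest. The gene lies on scaffold NW_020847815.1 from 64154 to 68409.

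The cytosolic pair of typical peroxiredoxins, prdx2 and the gene described as peroxiredoxin-1 (LOC113649157), varied most between the control pools relative to their mean FPKM. The gene LOC113649157, on scaffold NW_020847859.1 from 310805 to 312884, was at 211, 119 and 137 FPKM in normoxia and 138, 151 and 118 FPKM in hypoxia. The gene prdx2, known as the abundant peroxiredoxin of mammalian red blood cells, was at 196, 106 and 142 FPKM in normoxia and 171, 217 and 161 FPKM in hypoxia. Both were highest among the controls in normoxia replicate 1 and lowest in normoxia replicate 2, and the groups overlapped for both.

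Neither gene of that pair passed the test. The log2 difference was -0.03 ± 0.26 for LOC113649157 (edgeR adjusted p = 0.944), of either sign in other fits and 0.30 without normoxia replicate 1. For prdx2 it was 0.47 ± 0.27 (edgeR adjusted p = 0.281) and 0.77 without normoxia replicate 1. The deposited table gives prdx2, prdx3 and LOC113649157 the same orthology entry, and whether reads of prdx2 and LOC113649157 could be assigned to the wrong copy was not tested, so their single values are uncertain.

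The gene described as peroxiredoxin-6 (LOC113658712), of the branch that uses glutathione in place of thioredoxin, had the highest mean FPKM in both groups, but in normoxia prdx5 was above it in replicates 2 and 3. It was at 483, 395 and 409 FPKM in normoxia and 458, 445 and 466 FPKM in hypoxia, with a log2 difference of 0.25 ± 0.15 (edgeR adjusted p = 0.315). The peroxiredoxin-6-like gene LOC113662253 was the least abundant member, at 3.03, 2.72 and 2.07 FPKM in normoxia and 3.76, 3.03 and 1.79 FPKM in hypoxia. The groups overlapped for both genes, and the latter differed by 0.32 ± 0.36 in log2 (edgeR adjusted p = 0.595). Some reads of one copy may have been counted for the other.

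**Figure D2:**
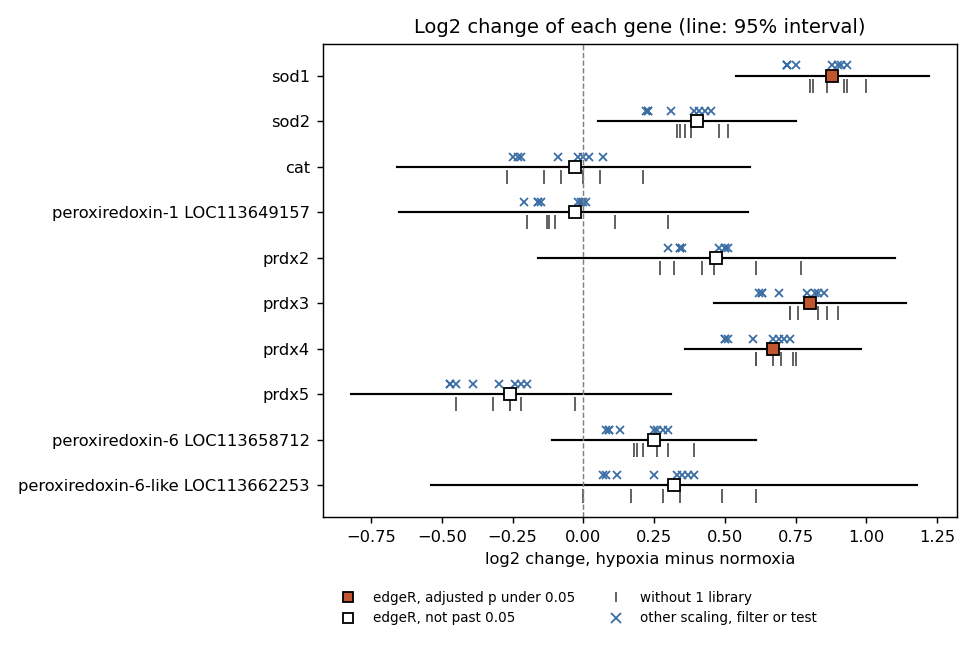
Log2 change in hypoxia relative to normoxia (horizontal axis) of each gene, with squares for the edgeR estimate, lines for its 95% interval before adjustment over all genes, bars below for fits without 1 library and crosses above for other scalings, filters or tests. The intervals of sod1, prdx3 and prdx4 begin at 0.54, 0.46 and 0.36, and the marks of cat and peroxiredoxin-1 fall on both sides of 0.

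Levels per transcript length differed widely between the genes. In normoxia the order by mean FPKM was LOC113658712 (429 ± 47.0, SD, n = 3), prdx5 (419 ± 24.5), LOC113649157 (156 ± 48.7), prdx2 (148 ± 45.5), sod1 (114 ± 10.8), prdx3 (58.0 ± 4.15), prdx4 (46.9 ± 3.34), sod2 (33.1 ± 3.84), cat (13.9 ± 1.61) and LOC113662253 (2.61 ± 0.490). Neighbours whose library ranges overlapped were LOC113658712 with prdx5, LOC113649157 with prdx2, and prdx2 with sod1. All other neighbours were separate in all 3 control libraries.

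In hypoxia sod1 stood above LOC113649157 and next to prdx2, at 189 ± 24.2 FPKM, with a range that overlapped that of prdx2 (183 ± 30), and LOC113649157 (136 ± 16.5) was below every library of both. The summed level of the 10 genes was 1567, 1320 and 1377 FPKM in normoxia and 1450, 1641 and 1366 FPKM in hypoxia, so the totals overlapped. Within that sum sod1 made up 8.02%, 7.89% and 8.20% in normoxia and 11.2%, 12.7% and 14.4% in hypoxia. The share of prdx5 was 25.2%, 33.6% and 30.5% in normoxia and 21.8%, 23.7% and 16.6% in hypoxia.

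A ratio of 2 genes within 1 library does not depend on the scaling between libraries, and 5 such ratios, chosen after the values were seen, are given as a description. A ratio can still carry differences between libraries that depend on transcript length. With a correction for length the log2 difference moved from 0.88 to 0.75 for sod1 and from -0.03 to 0.07 for cat. For prdx3 it moved from 0.80 to 0.69 and for prdx5 from -0.26 to -0.39. The ratio of sod1 to cat was 8.48, 7.06 and 9.41 in normoxia and 13.6, 13.3 and 23.5 in hypoxia. The ratio of sod1 to sod2 was 4.16, 2.78 and 3.57 in normoxia and 4.21, 4.98 and 5.49 in hypoxia, where the nearest libraries of the groups almost touched. The mitochondrial pair lay closer together in hypoxia, with a ratio of prdx3 to prdx5 of 0.152, 0.120 and 0.145 in normoxia and 0.277, 0.253 and 0.372 in hypoxia.

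The ratio of prdx2 to LOC113649157 was 0.931, 0.888 and 1.04 in normoxia and 1.24, 1.44 and 1.36 in hypoxia. The single genes of that pair overlapped between the groups, while their ratio did not, and normoxia replicate 1 was the highest control for both genes. The pair was chosen after its values were seen, and the share of other gene pairs whose ratio separates the groups was not determined. This separation is therefore a description and no evidence of a change in either gene.

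**Figure D3:**
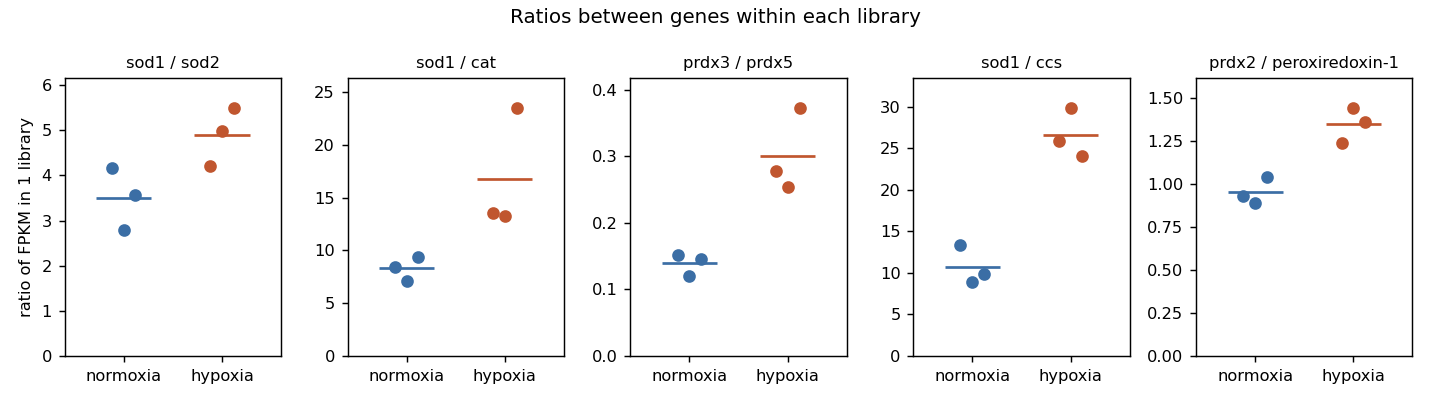
Ratio of the FPKM of 2 genes within each library (vertical axes, from 0) for 3 normoxia (blue) and 3 hypoxia (orange) libraries, with lines for the mean. All 5 ratios, chosen after the values were seen, are higher in every hypoxia library than in any normoxia library. The closest approach is for sod1 to sod2 (4.16 against 4.21). The genes sod1 and prdx3, the numerators in all panels but the last, were already called higher, so their ratios are no separate evidence. No ratio was tested, and the last one is a description only.

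Peroxiredoxins depend on the thioredoxin system, and 1 of its 12 tested genes rose, with none lower. This was the gene with the symbol txn, described as thioredoxin-like. It was at 79.0, 69.6 and 72.9 FPKM in normoxia and 107, 111 and 98.7 FPKM in hypoxia (log2 change 0.68 ± 0.14, edgeR adjusted p = 0.0367). The median log2 difference of the list was 0.38, and 9 of 12 genes had a difference above 0, against 47.1% of all tested genes. Called genes made up 8.33% of the list and 9.54% of all tested genes. Those above 0 included the thioredoxin-interacting protein genes LOC113662807 (0.58 ± 0.25, edgeR adjusted p = 0.176) and LOC113644183 (0.75 ± 0.30, edgeR adjusted p = 0.142). The list therefore does not describe thioredoxin supply alone. The call of txn ended with the correction for transcript length (edgeR adjusted p = 0.0630), with library totals (0.0517) and when replicate 1 or 2 of hypoxia, or replicate 2 or 3 of normoxia, was absent, where the log2 change was 0.61 to 0.66.

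Other genes of the list did not pass. The mitochondrial thioredoxin gene txn2, the usual partner of the prdx3 product in mammals, differed by 0.49 ± 0.14 in log2 (edgeR adjusted p = 0.0707), and the abundant thioredoxin-like gene LOC113663147 one of 0.54 ± 0.15 (edgeR adjusted p = 0.0640). Sulfiredoxin srxn1, which repairs over-oxidised peroxiredoxins, was at 16.9, 15.0 and 13.9 FPKM in normoxia and 9.25, 11.8 and 11.7 FPKM in hypoxia, with a log2 difference of -0.33 ± 0.18 (edgeR adjusted p = 0.254). DESeq2 called 3 genes of the list higher (txn, txn2 and LOC113663147) and 1 lower, the sestrin gene sesn1.

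Of 5 tested glutathione peroxidase genes 1 rose and none fell, with a median log2 difference of -0.42. That call was 20% of this short list, against 9.54% of all tested genes called. The gene that rose was gpx4, whose product reduces lipid hydroperoxides in membranes, with means of 70.8 ± 2.25 FPKM in normoxia and 102 ± 7.44 FPKM in hypoxia and a log2 change of 0.69 ± 0.14 (edgeR adjusted p = 0.0344). Its call was kept in 1 of the 6 fits without a library, the one without hypoxia replicate 3, and it ended with library totals (log2 difference 0.51), where the edgeR adjusted p lay just above 0.05. The glutathione peroxidase 1-like gene LOC113648572 stood at a log2 difference of -0.75 ± 0.31 and did not pass (edgeR adjusted p = 0.159).

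Both thioredoxin reductases and glutathione reductase draw on NADPH, and 2 of 12 tested genes of a list for NADPH supply rose. These were the transketolase-like gene LOC113658263, an enzyme of the pentose phosphate pathway (log2 change 0.78 ± 0.14, edgeR adjusted p = 0.0255), and idh2, the NADP-dependent isocitrate dehydrogenase of mitochondria (0.63 ± 0.14, edgeR adjusted p = 0.0395). Transketolases do not themselves form NADPH, so the list does not describe NADPH supply alone. The other transketolase gene, tkt, differed by 0.47 ± 0.19 in log2 (edgeR adjusted p = 0.14) and did not pass. Nor did pgd, at 0.20 ± 0.15 (edgeR adjusted p = 0.384). The median log2 difference of the list was 0.41. Called genes made up 16.7% of the list and 9.54% of all tested genes. Each of the 2 calls was kept in 1 of the 6 fits without a library. That was the fit without normoxia replicate 1 for LOC113658263 and the one without hypoxia replicate 3 for idh2. The call of idh2 also ended with library totals (edgeR adjusted p = 0.0664) and by limma with a pseudocount of 1 (adjusted p = 0.0527) or 0.1 (0.0561). With a block for the replicate number the calls of txn, gpx4, LOC113658263 and idh2 all ended (edgeR adjusted p = 0.0694, 0.0719, 0.066 and 0.0863).

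None of 7 tested genes of copper and manganese supply passed the edgeR test. At an unadjusted p under 0.05, where 30.3% of all tested genes lay, 2 were higher and 1 lower, and DESeq2 called the same numbers. The chaperone ccs, which loads copper into the sod1 product, was at 9.42, 11.8 and 11.4 FPKM in normoxia and 6.28, 6.98 and 8.22 FPKM in hypoxia. Its hypoxia libraries all lay below the controls in FPKM, as for 25.9% of all tested genes, and in TMM-scaled CPM, as for 18.5%. The log2 difference, opposite in direction to sod1, was -0.45 ± 0.14 (edgeR adjusted p = 0.0856, DESeq2 adjusted p = 0.0493). The ratio of sod1 to ccs, in FPKM, was 13.3, 8.84 and 9.86 in normoxia and 25.8, 29.8 and 24.0 in hypoxia.

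The copper importer slc31a1 differed by 0.89 ± 0.24 in log2 (edgeR adjusted p = 0.0583), and the copper chaperone atox1, which passes copper to export pumps, one of 0.61 ± 0.17 (edgeR adjusted p = 0.0632). DESeq2 gave these genes adjusted p values of 0.00712 and 0.0160.

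**Figure D4:**
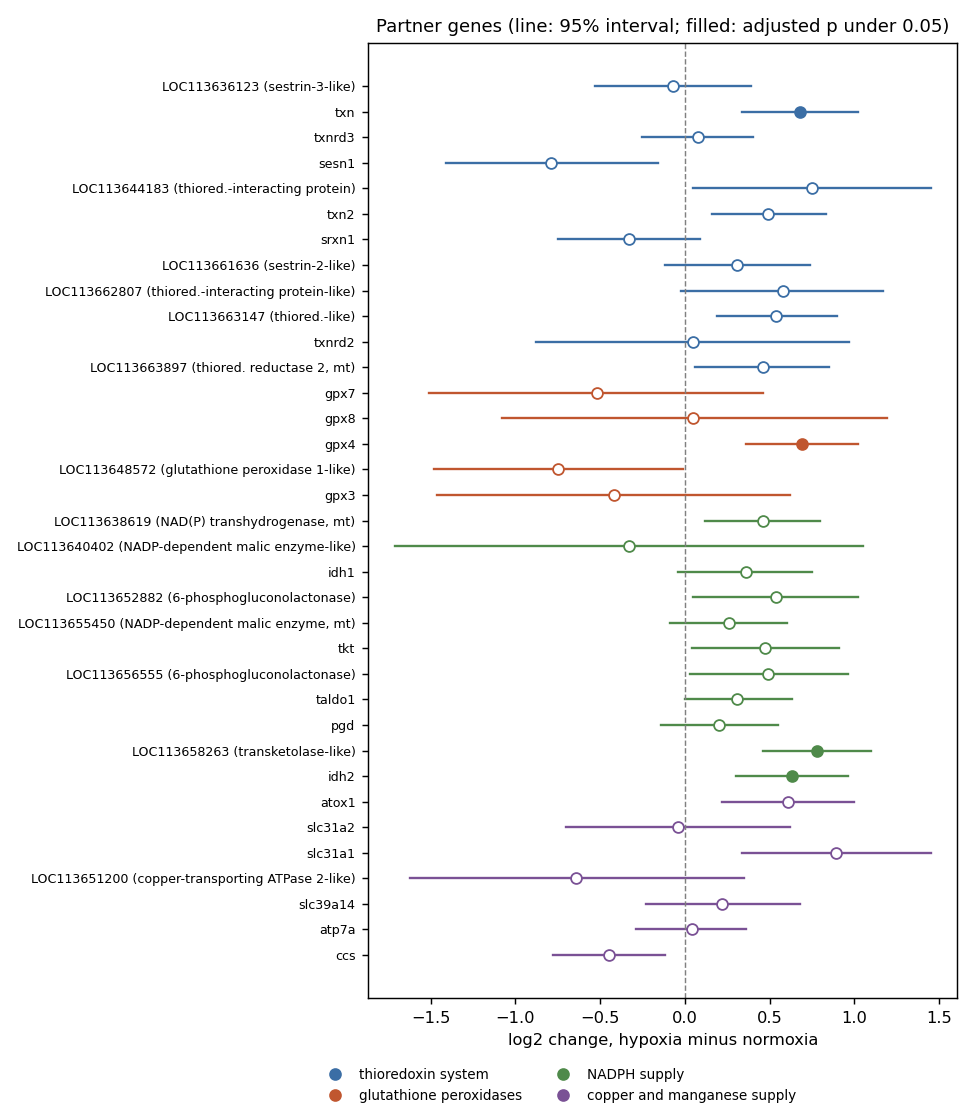
Log2 change in hypoxia relative to normoxia (horizontal axis) of tested genes (all but 1) of the thioredoxin system, the glutathione peroxidases, NADPH supply and copper and manganese supply, with lines for 95% intervals before adjustment over all genes and filled points for an edgeR adjusted p under 0.05. The 4 filled points, txn, gpx4, LOC113658263 and idh2, lie between 0.63 and 0.78, and ccs lies at -0.45.

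Of 22 tested regulators and targets of the factor Nrf2, which drives many antioxidant genes under oxidative stress in mammals, none passed the edgeR test. DESeq2 called 0 of them. At an unadjusted p under 0.05, where 30.3% of all tested genes lay, 0 were higher and 1 lower. That was the BACH1-like regulator gene LOC113659150 (log2 difference -0.45 ± 0.18, edgeR adjusted p = 0.136). The factor gene nfe2l2 was at 179 ± 22.7 FPKM in normoxia and 186 ± 21.7 FPKM in hypoxia, and the target hmox1 at 27.7 ± 18.7 and 47.0 ± 17.2 FPKM. The groups overlapped for hmox1, with a log2 difference of 0.89 ± 0.53 (edgeR adjusted p = 0.297). Below 0 lay the targets nqo1 (-0.37 ± 0.36), fth1 (-0.25 ± 0.19), gclc (-0.19 ± 0.18) and gclm (-0.11 ± 0.21). Above 0 lay the further heme oxygenase genes LOC113634503 (0.76 ± 0.54), LOC113634505 (0.57 ± 0.27) and LOC113634506 (0.43 ± 0.28). The median log2 difference of this list was -0.19, with 8 of 22 genes above 0. The list pools regulators of Nrf2 with its targets, so this median does not measure the output of Nrf2, which was not tested. Of 33 tested genes of the peroxisome, the compartment of catalase, none passed the edgeR test. At an unadjusted p under 0.05, which 30.3% of all tested genes reached, 2 of the 33 were higher and 1 lower. DESeq2 called 2 higher (abcd3 and pex19) and 1 lower (hsd17b4). The median of the peroxisome list was -0.07, close to that of all genes.

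The genes with a symbol whose centred log2 CPM lay nearest to a member over the 6 libraries, out of 7607 compared, were found by root mean square distance. For sod1 these were haus1, snrpf and immp2l, at distances of 0.030, 0.032 and 0.039 against a median distance of 0.491. For prdx3 they were rbx1, ggcx and psmb1, at 0.052, 0.054 and 0.061 against a median of 0.455, and for cat they were arpin, caap1 and pea15, at 0.069, 0.099 and 0.106 against a median of 0.429.

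Markers of other cell types were set beside these values. The summed FPKM of 26 erythrocyte markers was 3490 to 7417 in normoxia and 4021 to 4817 in hypoxia, with 13 markers, all hemoglobin copies, at 0 counts. By edgeR 2 of 10 tested (hemgn and rhag) were lower, as by DESeq2. The median log2 difference of the 10 was -0.20, with 2 above 0. No tested hemoglobin gene was called, with log2 differences from -0.58 (hbz) to 0.12 (LOC113656803). The band 3-like genes LOC113638122 and LOC113662208 stood at -0.15 and 0.48 and were not called. The summed FPKM of 7 lymphocyte markers was 144 to 174 in normoxia and 77.0 to 95.5 in hypoxia, with none at 0 in every library. Of 6 tested lymphocyte markers 2 (cd79a and blnk) passed the edgeR test as lower. All 6 were lower at an unadjusted p under 0.05, where 30.3% of all tested genes lay in either direction, and DESeq2 called 5 lower. For 16 myeloid markers the sums were 900 to 1050 and 708 to 901, with 4 of 14 tested lower by edgeR and 4 by DESeq2. By edgeR, markers called lower made up 28.6% of the tested myeloid, 20% of the erythrocyte and 33.3% of the lymphocyte markers. Of all tested genes 4.15% were called lower. The 4 myeloid markers lower by edgeR included spi1 (log2 change -0.59 ± 0.14) and the myeloperoxidase gene LOC113661326 (-1.21 ± 0.27). The others were the granulocyte colony-stimulating factor receptor-like gene LOC113639254 (-1.51 ± 0.29) and the macrophage-expressed gene 1-like gene LOC113656273 (-0.92 ± 0.12). At an unadjusted p under 0.05, 1 myeloid marker was higher (marco, log2 difference 1.22 ± 0.50, edgeR adjusted p = 0.155) and 5 lower. Of the 14 tested myeloid markers 3 had a difference above 0.

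Among 13 tested endothelial markers 1 rose, or 7.69%, against 9.54% of all tested genes called. It was esam, a junction protein gene, with means of 9.79 ± 0.809 FPKM in normoxia and 14.7 ± 1.64 FPKM in hypoxia (log2 change 0.74 ± 0.12, edgeR adjusted p = 0.0240). The endothelial list had a median log2 difference of 0.14, with 7 of 13 above 0. The summed FPKM of the 15 endothelial markers overlapped, at 49.0 to 49.8 in normoxia and 44.7 to 58.8 in hypoxia. Sums of 19 striated muscle markers varied from 3.91 to 320 FPKM among the controls and from 8.08 to 321 in hypoxia, and none of 11 tested passed (0 at an unadjusted p under 0.05, and 0 by DESeq2). With 1 library left out, 0 to 1 erythrocyte, lymphocyte or endothelial markers and 0 to 2 myeloid markers were called. The lymphocyte sums were lower in every hypoxia library, and the part of cell composition in the changes of sod1, prdx3 and prdx4 was not tested.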

How the data were processed

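Gill RNA of 6 pooled libraries was enriched for polyadenylated RNA and read from both ends by Illumina sequencing, per the labels' protocols. Cutadapt 1.9 and HISAT were used, per the submitters' processing notes; the counter, strand, genome build, annotation and whether a count is a read or a pair were not given in the sources used here. Counts and FPKM for each gene make up the deposited table, per the file headers; a count of 0 is listed as an FPKM of 0.0001. Groups were taken from titles and treatment labels, since 1 general treatment text is shared by all samples. Counts were tested with edgeR 4.0.16 (glmQLFit and glmQLFTest, TMM, two-sided) in R 4.3.3, Benjamini-Hochberg adjusted over 15312 genes; SEs and intervals come from the F statistic. The fits were tested on simulated data. DESeq2 1.42.0 and limma 3.58.1 on log2(FPKM + 1) or log2(FPKM + 0.1) were alternatives. For the length correction, length was taken from count, FPKM and library total (counts of at least 10) and entered through a loess curve (span 0.5) as an offset.

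Precision is set by the spread between pools (common biological coefficient of variation 0.329). Replicates differed by more than counting noise (chi-square per gene 137 or more for each pair). The members and gene lists were chosen with earlier results of these data known. All members were named, and of each pathway list the genes past the threshold, at most 6. The genes srxn1, txn2, LOC113663147, LOC113662807, LOC113644183, sesn1, LOC113648572, ccs, slc31a1, atox1, nfe2l2, hmox1, LOC113659150, abcd3, pex19, hsd17b4, the marker genes named and LOC113649315 were chosen after their values were seen. So were tkt, pgd and the further Nrf2 targets named. The reference names at hand, for a different assembly, shared 0 identifiers with the deposited table. No sequence of these genes was used here, and 1 gene of the lists is not reported here.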

Additional observations from a re-analysis of the deposited data

How the results depend on the processing

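Of 80 values of the 10 members under 8 other settings, 73 kept direction and side of the threshold; of 60 with 1 library left out, 43 did. Members not called count here as keeping their side while they stay uncalled. A call was lost in 4 of the 80 values and 12 of the 60. The calls of sod1, prdx3 and prdx4 each held in 2 of the 6 fits without a library. The log2 difference of cat reversed to 0.02 without a filter and 0.07 with the length correction, and that of LOC113649157 to 0.01 without a filter; with 1 library left out they ran from -0.27 to 0.21 and from -0.20 to 0.30. Members called higher ran from 0 to 3 with 1 library left out, and 2 (sod1 and prdx3) remained with library totals. Genes called higher, 825 in the reported fit, were 1792 by DESeq2, 364 with library totals, 479 and 436 by limma with pseudocounts of 1 and 0.1, and 541 without a filter. Genes called lower, 636 in the reported fit, were 1540 by DESeq2, 392 with filterByExpr, 363 with the length correction and 321 without a filter. With 1 library left out they ran from 68 to 490 higher and from 64 to 422 lower. The cause of these shifts was not tested. Of 42 comparisons of the 3 pathway list counts above 0, 25 moved by more than 1.5 times.

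The labels do not say whether the replicate numbers pair the libraries. Deviations from group means correlated at -0.084, 0.045 and -0.095 for numbers 1, 2 and 3, and normoxia replicate 1 correlated best with hypoxia replicate 3 (0.171). With 3 libraries per group such deviations sum to 0 within a group, so these values cannot settle whether a pairing exists. With a replicate block 122 genes were higher and 120 lower, and 0 members were called, with log2 changes of 0.88, 0.79 and 0.67 for sod1, prdx3 and prdx4.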

Other observations

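Outside the set defined by name lie 2 genes described as extracellular copper-zinc superoxide dismutase, the secreted form of the enzyme, chosen after their values were seen. The gene LOC113649315, on scaffold NW_020847866.1 from 334019 to 337865, was at 2.87, 10.5 and 3.19 FPKM in normoxia replicates 1, 2 and 3 and at 2.66, 2.27 and 3.20 FPKM in hypoxia. Normoxia replicate 2 stood apart from the other 5 libraries, and the log2 difference of -0.86 ± 0.50 (edgeR adjusted p = 0.293) was nearest to 0, at -0.01, with 1 library left out. The other, LOC113662149, had a count of 0 in all 6 libraries.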
